A study of Mus musculus with 22 samples.

Results

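Genes of Schwann cells and peripheral nerve were followed in mouse back skin: Sncg, Ncam1, Pmp22, Mbp, Mag, Sox10 and Ngfr. Every probe set that the platform annotation pairs with exactly 1 of these genes was taken, which gave 13 of 12422 probe sets (array controls left out), for 6 of the 8252 genes named on the array. No probe set was paired with Ngfr alone, so Ngfr was not analysed here. The arrays compared K14-DN-CLIM transgenic mice with wild-type littermates (DN-CLIM and WT below), all of the CB6F1 strain. The transgene makes a CLIM protein that blocks the normal CLIM (Ldb) cofactors, the nuclear partners of LIM domain factors, in a dominant-negative way. Its keratin 14 promoter is active in basal keratinocytes and not in Schwann cells or neurons. There were 5 DN-CLIM and 5 WT arrays at postnatal day 6 (P6), then 3 and 3 at P14, then 3 and 3 at P23, each of whole back skin. P6 and P14 stand for the first growth of the hair follicles and P23 for the first resting phase, telogen, per the series' design text. That text names as many mice as arrays per group, but the labels tie no array to a single mouse, so p-values measure the spread between arrays.

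Schwann cells wrap the axons of sensory and autonomic nerves that run through the dermis to the epidermis and the hair follicles. Myelinating Schwann cells build compact myelin from a small set of abundant proteins, and non-myelinating ones hold bundles of thin axons and keep the adhesion molecule NCAM1 on their surface. The transcription factor SOX10 is needed at each step of the lineage, and nerves of the skin keep maturing after birth. None of these genes is private to nerve: Sncg is also made by fat cells, Ncam1 by muscle and dermal papilla, Sox10 by melanocytes and Pmp22 by fibroblasts. In RNA of whole skin, fewer cells of a type and less RNA per cell cannot be told apart.

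The sequences before the transcription starts of Sncg and Pmp22 are shown because these genes gave the widest genotype difference and the brightest member signal. RefSeq windows of 300 bases on GRCm38.p6, from 250 bases before a start to 50 after it, were used for 4 of the 7 genes (Sncg, Pmp22, Mag and Ngfr). No window was found for Ncam1 or Sox10, and the search of the members left out the chromosome of Mbp. The Sncg window is chr14:34374620-34374919 on the minus strand. Its capitals mark TAATNA, a core bound by LIM homeodomain factors, the partners of CLIM. Both strands were searched, and the window held 1 match, 219 bases before the start.
Sncg: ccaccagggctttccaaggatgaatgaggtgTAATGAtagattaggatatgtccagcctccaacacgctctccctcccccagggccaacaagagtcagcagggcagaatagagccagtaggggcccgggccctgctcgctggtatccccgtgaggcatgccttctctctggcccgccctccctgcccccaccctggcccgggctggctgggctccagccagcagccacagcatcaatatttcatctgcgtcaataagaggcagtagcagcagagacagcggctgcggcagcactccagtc
The motif was present in 26.5% of the 32851 windows of this length on either strand, so a match is common, and no binding was measured here. RefSeq held 4 windows for Pmp22, and the array cannot tell their transcripts apart. In the first and the last of them, chr11:63128732-63129031 and chr11:63132553-63132852, both on the plus strand, capitals mark CG dinucleotides.
Pmp22 first window: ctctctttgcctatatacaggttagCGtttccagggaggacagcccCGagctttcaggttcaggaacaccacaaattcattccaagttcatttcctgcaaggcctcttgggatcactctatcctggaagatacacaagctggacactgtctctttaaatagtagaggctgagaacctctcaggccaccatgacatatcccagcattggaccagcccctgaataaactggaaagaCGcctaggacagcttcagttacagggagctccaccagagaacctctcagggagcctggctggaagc
Pmp22 last window: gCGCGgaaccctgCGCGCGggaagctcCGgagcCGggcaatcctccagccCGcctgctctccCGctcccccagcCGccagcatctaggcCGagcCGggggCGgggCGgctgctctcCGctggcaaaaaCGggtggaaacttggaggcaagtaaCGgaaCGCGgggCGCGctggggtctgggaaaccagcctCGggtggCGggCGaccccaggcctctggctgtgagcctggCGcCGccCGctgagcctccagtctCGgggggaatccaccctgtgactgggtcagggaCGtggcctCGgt
The first holds 3 CG dinucleotides at 50.7% G and C, the last 30 at 72.3%, against medians of 7 and 52.7% over all windows. The core bound by SOX factors, ACAAAG, was searched on both strands as well and is in 18.7% of windows. It was found in 2 of the 3 Mag windows, which overlap, and its letters were not in the windows of Sncg, Pmp22 or Ngfr. No window of these genes held both motifs, so they could not overlap.

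The values are MAS5 signals on a linear scale, used as log2. Of the 13 probe sets, 7 passed the filter on dim signals (a mean of at least log2 7.67, a signal of 203, over the 22 arrays) and were tested: both for Sncg, 161859_f_at and 104280_at, both for Mbp, 96311_at and 96310_at, and 1 each for Ncam1 (100153_at), Pmp22 (102395_at) and Sox10 (102856_at). The 6 others, 2 for Mag, 2 for Ncam1, 1 for Pmp22 and 1 for Sox10, were below it. The genes were chosen by earlier results of these arrays: Sncg was low in DN-CLIM skin at P6, and a list of Schwann cell genes was high in DN-CLIM skin at P14. The genotype differences at those ages are therefore given with no test. Age differences that include the P6 arrays for Sncg, or the P14 arrays for the other genes, share the arrays that chose them and likewise carry no test. The P23 genotype difference uses none of these arrays. Array medians lay between 7.56 and 7.80 (log2), with the 6 P23 arrays highest. DN-CLIM P6 replicate 5 correlated least with its group (mean r = 0.923). Without it the P6 difference, DN-CLIM minus WT, would be 0.17 for Pmp22 in place of 0.017 and -0.057 for Sox10 in place of -0.13 (log2), and those of the other tested probe sets would keep their sign.

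Other markers of nerve gave signals on both sides of the filter, and which cells gave these signals was not tested. Of 33 further Schwann cell and myelin genes, 22 had a single-gene probe set and 9 passed the filter. The 9 had mean signals from 235 (Mal) to 4812 (Cd9, carried by many cell types), with Erbb3 at 1932, Egr2 at 1993, Nes at 635 and Dhh at 528. The other 13 ran from 8.66 to 184, among them S100b at 55.7, L1cam at 65.5, Gjb1 at 78.8 and Cnp at 23.6. Of 27 axon and sensory neuron genes, 24 had a probe set and 5 passed the filter. The 5 ran from 381 to 2527, with Tubb3 at 2527 and Thy1 at 1694. The other 19 ran from 7.42 to 201, among them the neurofilament genes Nefl at 28.3 and Nefm at 16.0 and the sensory neuron gene Prph at 16.8. No signal in the table was 0, and no detection call was used, so low values say only that the probe sets were dim.

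Sncg encodes gamma-synuclein, a small protein of sensory axon terminals. Its 2 probe sets both gave lower signals in DN-CLIM than in WT skin at P6, and the gap was wider at the dimmer of them. Probe set 161859_f_at, whose suffix marks probes shared with related sequences, read 370, 455, 559, 519 and 429 on the 5 DN-CLIM arrays at P6, against 729, 792, 648, 663 and 812 on the 5 WT arrays. At 104280_at the P6 signals were 79.3, 125, 116, 58.4 and 132 in DN-CLIM skin and 173, 267, 238, 310 and 369 in WT skin. The genotypes did not overlap at P6 at either probe set. The log2 difference, DN-CLIM minus WT, was -0.65 (SE 0.13), or 1.57-fold lower, at 161859_f_at and -1.43 (SE 0.23), or 2.70-fold lower, at 104280_at. These values chose the gene and are a description. All 5 DN-CLIM signals of 104280_at at P6 were below 203, the signal set as the filter for the mean over all arrays. Under the other processing choices its P6 difference ran from -1.43 to -1.18. Among all 6211 probe sets tested, 0.499% were lower in DN-CLIM skin at P6 without overlap. The P6 arrays numbered 1 to 3 and those numbered 4 and 5 had been seen to part. The difference at 104280_at was -1.09 among arrays 1 to 3 and -1.95 among arrays 4 and 5, and at 161859_f_at it was -0.66 and -0.64.

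The low Sncg signal was not seen at P14. Probe set 161859_f_at read 647, 699 and 685 in DN-CLIM skin and 694, 477 and 661 in WT skin. At 104280_at the P14 signals were 307, 244 and 223 in DN-CLIM skin and 234, 190 and 200 in WT skin. The genotypes overlapped at both, and the log2 differences were 0.17 at 161859_f_at (-0.0010 to 0.27 with 1 array left out, lowest without WT replicate 2) and 0.30 at 104280_at (0.17 to 0.40). At P23 the first probe set read 712, 611 and 460 in DN-CLIM skin and 890, 774 and 687 in WT skin. The P23 signals of 104280_at were 438, 331 and 262 in DN-CLIM skin and 393, 396 and 319 in WT skin. Both overlapped again. The log2 difference at P23 was -0.41 at 161859_f_at (95% interval -0.78 to -0.053, adjusted p = 0.909 in limma) and -0.13 at 104280_at (-0.73 to 0.48, adjusted p = 0.999), and neither passed.

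**Figure D1:**
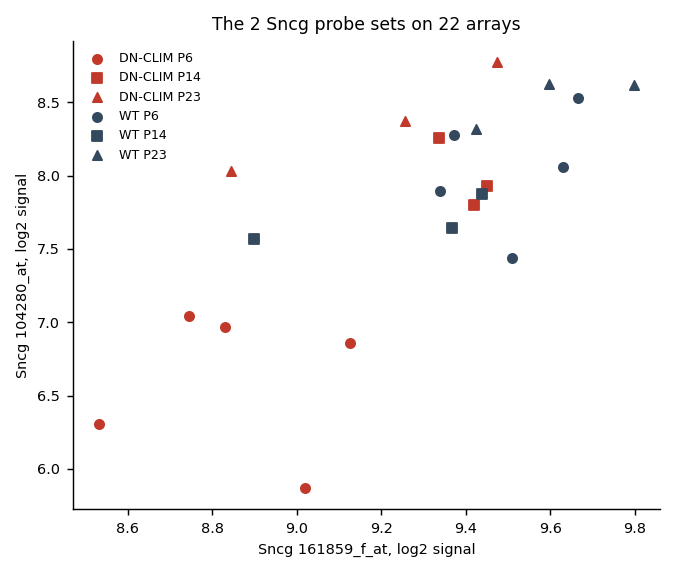
Log2 signal of Sncg probe set 104280_at (vertical axis) against 161859_f_at (horizontal axis) on each of the 22 arrays, with colour for genotype and shape for age. The 5 DN-CLIM P6 arrays lie lowest on the vertical axis, with mean log2 signals of 6.61 at 104280_at and 8.85 at 161859_f_at, and the other groups run into each other.

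Ordered by mean log2 signal, DN-CLIM P6 was the lowest of the 6 groups at both Sncg probe sets and WT P23 the highest. At 104280_at the DN-CLIM P6 mean, 6.61 ± 0.50 (SD, n = 5), was the only one apart from its neighbour by more than the SDs of both together, and that neighbour, WT P14, was at 7.69 ± 0.16 (n = 3). At 161859_f_at no neighbours in the order were apart by that much. In DN-CLIM skin 104280_at was 2.62-fold higher at P14 than at P6 and 3.45-fold higher at P23 than at P6. In WT skin its P14 mean was 0.34 below that of P6 and its P23 mean 0.48 above it (log2). These differences rest on the P6 arrays that chose the gene and carry no test. Between P14 and P23, 104280_at rose in WT skin by 0.83 (SE 0.29, adjusted p = 0.0204 in limma), a call lost without any of 4 of the 6 arrays (adjusted p up to 0.0632). In DN-CLIM skin the same step was 0.40 (adjusted p = 0.26). Over the 22 arrays the 2 probe sets correlated at r = 0.72, and at r = 0.30 after each group's mean was removed.

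Adipocytes also make Sncg, and their markers moved with age. Of 13 adipocyte genes, 11 had a single-gene probe set and 8 were tested. Their summed signal was 10538 to 12419 in DN-CLIM and 10599 to 13795 in WT skin at P6, and 7703 to 8454 in DN-CLIM and 6585 to 7444 in WT skin at P14. At P23 it was 14497 to 20162 in DN-CLIM and 16366 to 20529 in WT skin. The genotypes' ranges overlapped at P6 and P23 and not at P14, where DN-CLIM was the higher. Single genes went both ways. At P14 relative to P6, Lep was higher by 1.07 in DN-CLIM and by 0.40 in WT skin (log2). Fabp4 was higher by 0.50 in DN-CLIM and by 0.32 in WT skin. The other tested genes had lower means at P14 in both genotypes. From P14 to P23 the Lep mean fell by 0.63 in each genotype. The part of fat in the Sncg values was not tested.

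Sox10, the transcription factor that Schwann cells share with melanocytes, read between 454 and 759 on every array. At P6 its tested probe set read 685, 597, 612, 664 and 497 in DN-CLIM skin and 748, 653, 691, 606 and 631 in WT skin. At P14 it read 535, 500 and 563 in DN-CLIM skin and 515, 454 and 509 in WT skin. The P23 signals were 682, 595 and 685 in DN-CLIM skin and 759, 571 and 653 in WT skin. The genotypes overlapped at every age, with both P14 groups lowest. Between genotypes the log2 difference was -0.13 at P6 and 0.11 at P14, and at P23 it was -0.0082 (95% interval -0.28 to 0.27, adjusted p = 0.999 in limma).

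At P14 relative to P6 the log2 difference of Sox10 was -0.19 in DN-CLIM skin and -0.43 in WT skin, and at P23 relative to P14 it was 0.29 in DN-CLIM skin and 0.42 in WT skin. These steps use the P14 arrays and carry no test. At P23 relative to P6 it was 0.10 in DN-CLIM skin (95% interval -0.14 to 0.35, adjusted p = 0.473 in limma) and -0.017 in WT skin (-0.26 to 0.23, adjusted p = 0.92), and neither passed. No neighbours in the order of the 6 group means were apart by more than their SDs together. Melanocyte genes, taken as a sum, took another course. Of 12 listed, 9 had a probe set and 6 were tested, and their summed signal at P23 was 2073 to 2567 in DN-CLIM and 1993 to 2191 in WT skin, below 5411 to 9613 in DN-CLIM and 4656 to 8398 in WT skin at P6. At P14 it was 8534 to 12999 in DN-CLIM and 7330 to 9215 in WT skin, the highest of the ages by median, where Sox10 was lowest. In each genotype the P14 range overlapped that of P6. Kit and Mc1r, 2 of the 6, were lower at P14 than at P6, as Sox10 was. Their log2 differences were -0.46 and -0.50 in DN-CLIM skin and -0.42 and -0.56 in WT skin. The 4 other tested genes had higher means at P14 in both genotypes. The other Sox10 probe set, 100283_at, was below the filter. At P23 it read 101, 114 and 135 in DN-CLIM skin and 86.1, 66.5 and 81.9 in WT skin without overlap, while 102856_at overlapped there. At P6 and P14 the genotypes overlapped at 100283_at, where single arrays read between 26.4 and 176.

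Pmp22 encodes peripheral myelin protein, a membrane protein of compact myelin that fibroblasts also express. It was the brightest member, at the 90.8th percentile of mean signal, and rose steeply at telogen in both genotypes. At P6 the signals were 1257, 1467, 1260, 1210 and 756 in DN-CLIM skin and 1018, 1150, 1575, 1078 and 1007 in WT skin. At P14 they were 1034, 1097 and 1186 in DN-CLIM skin and 897, 1031 and 748 in WT skin. At P23 they were 3836, 3508 and 3524 in DN-CLIM skin and 4358, 4035 and 4042 in WT skin. Every P23 array was above every array of the earlier ages. Relative to P6, Pmp22 was 3.11-fold higher at P23 in DN-CLIM skin (log2 1.64, SE 0.17, adjusted p = 2.56e-08 in limma) and 3.61-fold higher in WT skin (1.85, SE 0.17, adjusted p = 4.16e-09). The genotype difference was 0.017 at P6, where it ran from -0.067 to 0.17 with 1 array left out, and 0.32 at P14, where the DN-CLIM arrays were all above the WT arrays. At P23 it was -0.19 (95% interval -0.58 to 0.19, adjusted p = 0.999), with the 3 DN-CLIM arrays all below the 3 WT arrays. The 2 P23 groups were the highest of the 6 by mean, each apart from its neighbour by more than their SDs together, and no neighbours among the 4 earlier groups were. Probe set 161442_at for Pmp22 was very dim, with signals between 3.76 and 25.0 on all arrays.

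Mbp encodes myelin basic protein, which holds the inner faces of the myelin membrane together. Both probe sets rose at P23, one of them far more than the other. Probe set 96311_at read 312, 386, 247, 259 and 230 in DN-CLIM skin at P6 and 241, 184, 301, 230 and 170 in WT skin. Its P14 signals were 281, 325 and 358 in DN-CLIM skin and 367, 239 and 223 in WT skin. Its P23 signals were 1220, 1169 and 1047 in DN-CLIM skin and 1361, 1118 and 1400 in WT skin. No P23 array overlapped the earlier ages, and the genotypes overlapped at each age. The P23 level was 4.06-fold that of P6 in DN-CLIM skin (log2 2.02, SE 0.20, adjusted p = 1.31e-08 in limma) and 5.84-fold in WT skin (2.55, SE 0.20, adjusted p = 3.46e-10). The 2 P23 means were the highest of the 6, and the gap below them was the only one wider than the neighbours' SDs together.

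The other Mbp probe set, 96310_at, read 274, 216, 281, 252 and 201 in DN-CLIM skin at P6 and 272, 270, 244, 283 and 317 in WT skin. At P14 it read 240, 291 and 366 in DN-CLIM skin and 411, 404 and 360 in WT skin. At P23 it read 508, 466 and 424 in DN-CLIM skin and 504, 462 and 560 in WT skin. In both genotypes every P23 array was above every P6 array, and both P23 means stood apart from the 4 others, which were not apart from their neighbours. Relative to P6 it was 1.91-fold higher at P23 in DN-CLIM skin (log2 0.94, SE 0.15, adjusted p = 1.59e-05 in limma) and 1.84-fold higher in WT skin (0.88, SE 0.15, adjusted p = 3.6e-05). At P14 relative to P6 the log2 difference was 0.28 in DN-CLIM skin and 0.50 in WT skin, with no test. The genotype differences at P6 and P14 had opposite signs at the 2 probe sets: 0.35 and 0.25 at 96311_at, against -0.19 and -0.41 at 96310_at. At P23 they were -0.17 at 96311_at (95% interval -0.63 to 0.28) and -0.13 at 96310_at (-0.47 to 0.22), each with adjusted p = 0.999 in limma. The files do not say which Mbp transcripts each probe set reads.

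Mag encodes myelin-associated glycoprotein, which sits on the Schwann cell membrane facing the axon. Both of its probe sets were below the filter and were not tested. Probe set 161846_r_at, whose suffix marks probes picked under relaxed rules, read 89.3 to 190 over the 22 arrays. At P6 it read 89.3, 133, 107, 134 and 108 in DN-CLIM skin and 132, 98.1, 142, 134 and 141 in WT skin, and at P23 190, 138 and 135 in DN-CLIM skin and 166, 165 and 123 in WT skin, with overlap at both ages. Probe set 102405_at read 13.7 to 35.3, and the genotypes overlapped at each age. No age or genotype difference of Mag is therefore claimed.

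**Figure D2:**
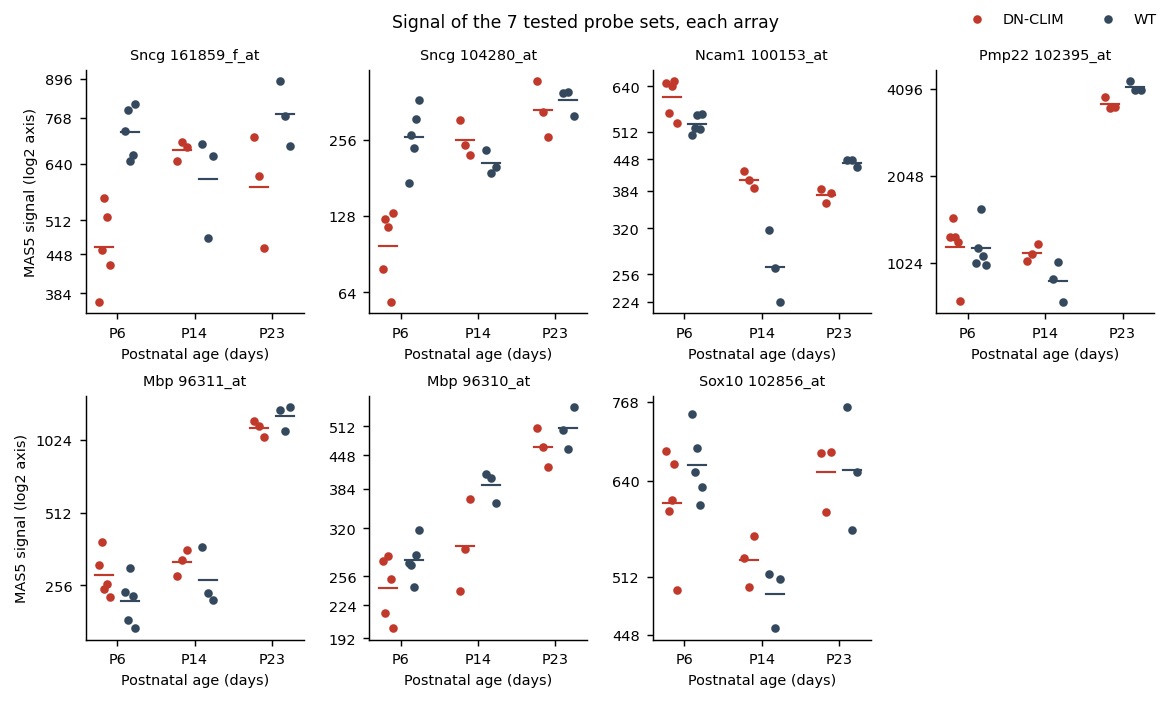
MAS5 signal (log2 axis) of the 7 tested probe sets at each postnatal age, each point an array and each bar the group mean of log2 signals, with DN-CLIM left of WT. At P23 Pmp22 sits between 3508 and 4358 and Mbp 96311_at between 1047 and 1400, above every earlier array, and Ncam1 is highest at P6.

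Ncam1 encodes the neural cell adhesion molecule, kept by non-myelinating Schwann cells and carried also by muscle and dermal papilla. Its signals were highest at P6. At P6 the tested probe set read 650, 560, 639, 657 and 534 in DN-CLIM skin and 505, 523, 556, 519 and 557 in WT skin. At P14 it read 422, 404 and 390 in DN-CLIM skin and 317, 264 and 223 in WT skin. At P23 it read 387, 363 and 380 in DN-CLIM skin and 447, 446 and 431 in WT skin. The DN-CLIM arrays were all above the WT arrays at P14 and all below them at P23. Between genotypes the log2 difference was 0.19 at P6, then 0.61 (SE 0.13), or 1.53-fold higher, at P14, and -0.23 (95% interval -0.49 to 0.032, adjusted p = 0.999 in limma) at P23.

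Ncam1 changed with age in both genotypes. At P23 relative to P6 it fell by 0.69 in DN-CLIM skin (log2, SE 0.11, 1.61-fold lower, adjusted p = 2.26e-05 in limma) and by 0.27 in WT skin (SE 0.11, 1.21-fold lower, adjusted p = 0.048). The WT call did not pass in 7 of the 8 runs with 1 array left out (adjusted p from 0.0569 to 0.123). The steps through P14 carry no test. At P14 relative to P6 the log2 difference was -0.58 in DN-CLIM skin and -1.0 in WT skin, and at P23 relative to P14 it was -0.11 in DN-CLIM skin and 0.73 in WT skin. In the later step the Ncam1 mean of WT skin was thus higher at P23, as were those of Pmp22 and Mbp. WT P14 was the lowest of the 6 groups, at 8.05 ± 0.25 (SD, n = 3), and DN-CLIM P6 the highest, at 9.24 ± 0.14 (n = 5). From WT P6 downwards each neighbour was apart by more than both SDs together.

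The other Ncam1 probe sets were dim. Probe set 161750_f_at read 25.6 to 182 and 100152_at 4.32 to 71.2, and the genotypes overlapped at each age. At 161750_f_at the mean log2 signal at P23 was 6.34 ± 0.47 (SD, n = 3) in DN-CLIM and 6.71 ± 0.13 (n = 3) in WT skin, below 6.87 ± 0.57 (n = 5) in DN-CLIM and 6.98 ± 0.36 (n = 5) in WT skin at P6, a gap within the SDs in DN-CLIM and WT alike. Of the other cells that carry Ncam1, all 16 muscle genes had a probe set and 11 were tested, with a summed signal of 27563 to 35071 in DN-CLIM and 23109 to 26884 in WT skin at P6. At P23 it was 85152 to 91079 in DN-CLIM and 85318 to 102687 in WT skin, the opposite direction to Ncam1. Of the 11, 9 were called higher in DN-CLIM skin and 10 in WT skin, where 26.7% and 25.7% of all probe sets were. Myh8 fell as Ncam1 did, from a mean log2 of 10.9 to 6.53 in DN-CLIM skin and from 10.4 to 6.11 in WT skin. At P14 the summed signal of the muscle genes was 24992 to 36616 in DN-CLIM and 30683 to 36775 in WT skin. Of 15 dermal papilla genes, 12 had a probe set and 5 were tested. Their summed signal at P6 was 2783 to 3171 in DN-CLIM and 2604 to 2867 in WT skin, at P14 it was 1478 to 1832 in DN-CLIM and 1683 to 1802 in WT skin, and at P23 it was 4070 to 4413 in DN-CLIM and 4955 to 5038 in WT skin. At P23 the genotypes' ranges did not overlap, DN-CLIM below WT as for Ncam1. From P6 to P23 the summed signal was higher where Ncam1 was lower, but single genes went both ways. In DN-CLIM skin 1 of the 5 was called higher and 3 lower (median log2 difference -0.37). In WT skin 1 was called higher and 1 lower (median -0.069). Of all probe sets, 26.7% were called higher and 28.2% lower in DN-CLIM skin, and 25.7% and 28.3% in WT skin. The part of muscle and dermal papilla in the Ncam1 values was not tested.

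**Figure D3:**
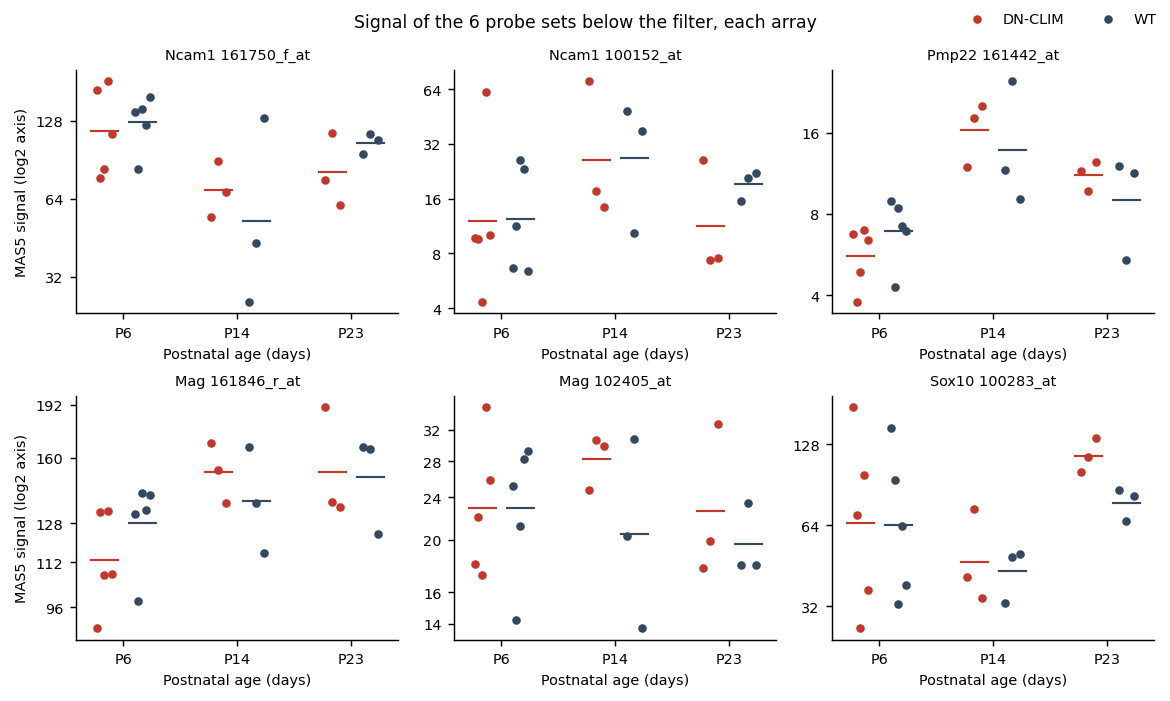
MAS5 signal (log2 axis) of the 6 probe sets below the filter at each postnatal age, each point an array and each bar the group mean of log2 signals, with DN-CLIM left of WT. Sox10 100283_at at P23 (101 to 135 in DN-CLIM, 66.5 to 86.1 in WT) has no overlap between genotypes, and the Mag probe sets stay between 89.3 and 190 and between 13.7 and 35.3.

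No tested member passed between the genotypes in telogen skin. At P23, 0 of the 7 probe sets passed the threshold of 0.05 for DN-CLIM against WT in limma, against 0.161% of all probe sets, and 1 of 7 had an unadjusted p under 0.05 (Sncg 161859_f_at). All 7 differences were below 0, as were 49.8% of those of all 6211 probe sets, with a median of -0.17, against 0.00049 over all. The 7 stand for 5 genes on the same arrays. Among the untested dim probe sets, Sox10 100283_at (0.58), Pmp22 161442_at (0.31), Mag 102405_at (0.20) and Mag 161846_r_at (0.025) were above 0. The dim Ncam1 probe sets 161750_f_at (-0.37) and 100152_at (-0.77) were below it. The tested differences of Sox10 and Sncg 104280_at turned above 0 with 1 array left out (up to 0.097 without WT replicate 1 for Sox10, and 0.052 without DN-CLIM replicate 3 for Sncg). Ncam1 and Pmp22 were lower in DN-CLIM skin with no overlap, 2 of 7, where 7.21% of all probe sets were. At P6 the median of the members was -0.13 (-0.17 to -0.057 with 1 array left out, nearest 0 without DN-CLIM replicate 5), and at P14 it was 0.25 (0.16 to 0.33), with Ncam1 and Pmp22 higher in DN-CLIM skin without overlap, as were 6.84% of all probe sets. The P6 and P14 medians belong to the values that chose the genes.

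**Figure D4:**
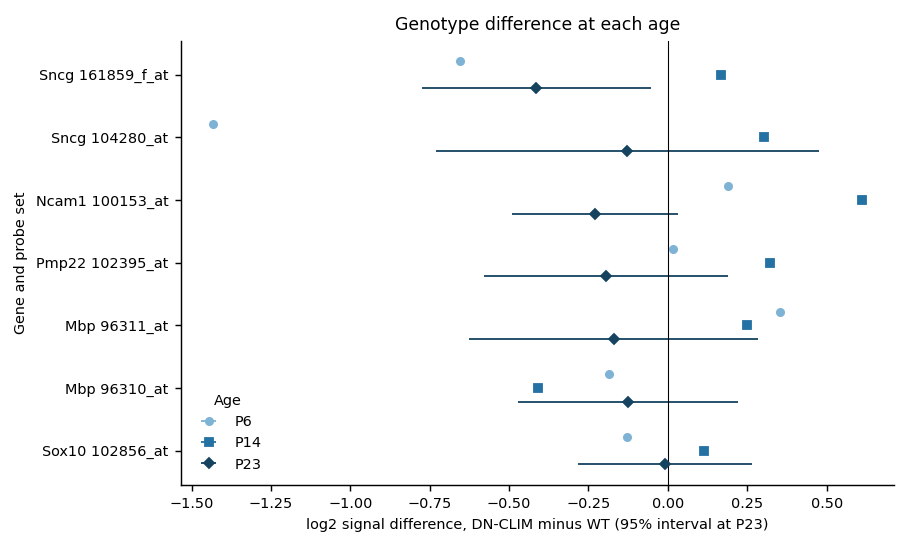
Log2 signal difference between genotypes (DN-CLIM minus WT, horizontal axis) of each tested probe set at P6, P14 and P23, with the 95% interval of the limma fit at P23 only. Both Sncg probe sets lie furthest left at P6 (-0.65 and -1.43), Ncam1 furthest right at P14 (0.61), and the 7 P23 points run from -0.41 to -0.0082.

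Between P6 and P23 Pmp22, Mbp and Ncam1 were called in both genotypes and Sox10 in neither, while Sncg and Mag carried no test. Of the 5 tested probe sets other than Sncg, the Pmp22 and both Mbp probe sets rose at P23 relative to P6 in both genotypes. Ncam1 fell in both, a call lost in WT skin in 7 of the 8 runs with 1 array left out. A call of this kind was common in the whole table: 26.7% of all probe sets were called higher and 28.2% lower in DN-CLIM skin, and 25.7% higher and 28.3% lower in WT skin. The steps through P14 are a description for these 5. At P23 relative to P14 the log2 difference in DN-CLIM skin was 1.71 for Pmp22, 1.84 for Mbp 96311_at and 0.66 for Mbp 96310_at, and in WT skin it was 2.23 for Pmp22, 2.26 for Mbp 96311_at and 0.38 for Mbp 96310_at. The P23 arrays had the highest medians, and the sources used here do not say whether the ages were processed together, so age and any difference in processing cannot be told apart.

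**Figure D5:**
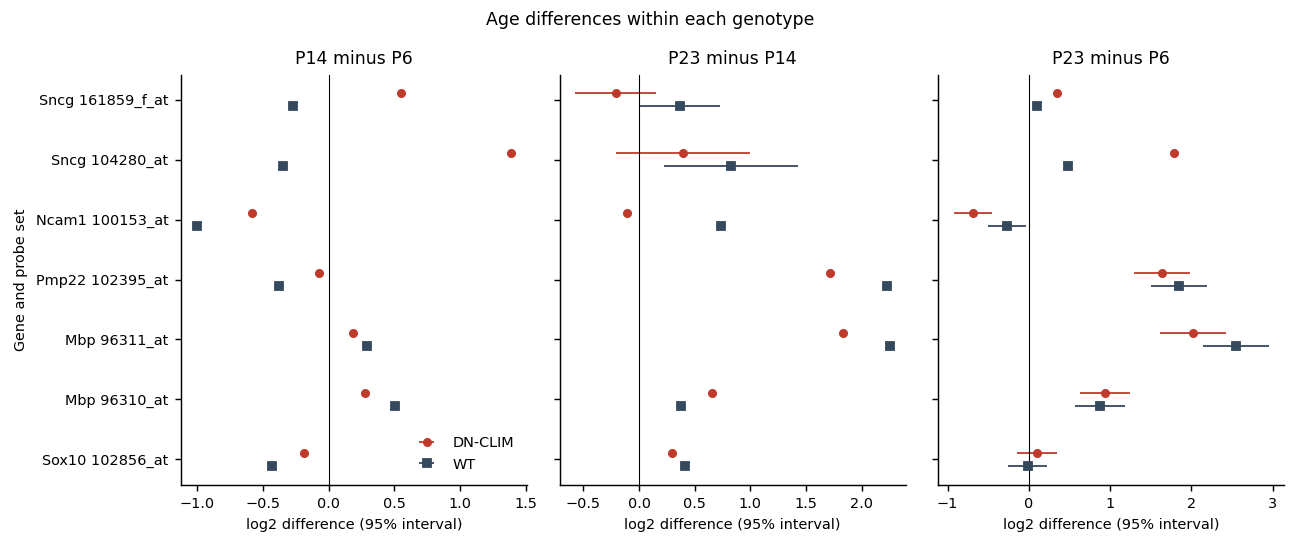
Log2 signal difference between ages within DN-CLIM (red circles) and WT (dark squares) skin for the 7 tested probe sets, with 95% intervals except where the difference uses the arrays that chose the gene (P6 for Sncg, P14 for the others). Pmp22 and Mbp 96311_at lie between 1.64 and 2.55 at P23 relative to P6, and Ncam1 lies below 0 (-0.69 in DN-CLIM, -0.27 in WT).

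As a description over the 22 arrays, which share their groups, Pmp22 and Mbp 96311_at correlated at r = 0.95, and at r = 0.60 after each group's mean was removed. The 2 Mbp probe sets correlated at 0.78, and at 0.085 within groups. Ncam1 correlated at -0.029 with Pmp22, -0.21 with Mbp 96311_at, -0.55 with Mbp 96310_at and 0.54 with Sox10, and within groups at 0.41, 0.27, 0.34 and 0.34 in that order. The genes most like each member are named by the highest r over the arrays. Pmp22 was most like C1qa, Amot and Serpinb6a (r = 0.98, 0.98 and 0.97), and Mbp like Gpx3, Lyz2 and Ugp2 (0.98, 0.97 and 0.97). Ncam1 was most like Meg3, Slc38a4 and Peg3 (0.89, 0.86 and 0.86), and Sox10 like Hoxd8, Abcd3 and Stx12 (0.83, 0.83 and 0.82). Sncg 104280_at was most like Ighm, Phyh and Atp6ap2 (0.81, 0.79 and 0.79), and 161859_f_at like Atp1b1, Mrps18a and Ica1 (0.68, 0.64 and 0.64). The dim Mag probe set 161846_r_at was most like Mfn1, Phf1 and Gnao1 (0.87, 0.84 and 0.82).

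The other Schwann cell and myelin genes were called in both directions. At P23 relative to P6, 2 of the 9 tested rose and 2 fell in each genotype, shares near those of all probe sets (26.7% higher and 28.2% lower in DN-CLIM, 25.7% and 28.3% in WT skin), with medians of -0.074 in DN-CLIM and -0.078 in WT skin, against 0.0011 in DN-CLIM and -0.028 in WT skin over all probe sets. Mal, a membrane protein of compact myelin, rose by 1.58 in DN-CLIM skin (log2) and by 1.57 in WT skin. Art3, a surface ADP-ribosyltransferase also found in muscle, rose by 1.81 in DN-CLIM skin and by 1.58 in WT skin. Egr2, the transcription factor that drives myelin genes, fell by 0.65 in DN-CLIM skin and by 0.44 in WT skin. Pou3f1, which acts before Egr2 in the lineage and is also expressed in epidermis, fell by 0.58 in DN-CLIM skin and by 0.63 in WT skin. Each of these passed with an adjusted p of at most 0.0253 in limma. Between genotypes at P23, 0 of the 9 passed in limma, and 0 had an unadjusted p under 0.05 (median -0.034).

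Among 5 tested axon genes, Tubb3 (neuronal tubulin) fell at P23 relative to P6 by 0.50 in DN-CLIM skin and by 0.91 in WT skin. Thy1, a surface protein of axons, fibroblasts and T cells, rose by 0.75 in DN-CLIM skin and by 1.06 in WT skin (adjusted p at most 0.0417 in limma for both genes). The medians of the 5 were -0.086 in DN-CLIM and -0.24 in WT skin. Stmn2, Gal and Sncb did not pass at any age step. Of 23 genes of neurotrophin and neuregulin signalling, 13 had a probe set and 7 were tested. Relative to P14, 4 rose and 0 fell at P23 in DN-CLIM skin, and 5 rose and 1 fell in WT skin, where 27.1% of all probe sets were called higher and 27.2% lower in DN-CLIM skin and 27% higher and 27.1% lower in WT skin. The 4 in DN-CLIM skin were Maged1 (0.71), Rtn4 (0.86), Nrtn (0.75) and Traf6 (0.38), which rose in WT skin by 0.84, 0.83, 0.79 and 0.33 (log2, adjusted p at most 0.0358 in limma). In WT skin Gfra2 was also called higher (log2 difference 0.76) and Erbb3 lower (-0.38). The medians of the 7 were 0.38 in DN-CLIM and 0.76 in WT skin, against -0.0031 in DN-CLIM and -0.0035 in WT skin over all probe sets. This step followed a lower P14 level: at P14 relative to P6 the medians were -0.45 in DN-CLIM and -0.19 in WT skin. At P23 relative to P6, 1 of the 7 was called higher and 1 lower in each genotype (medians -0.072 in DN-CLIM, 0.16 in WT skin). Of all probe sets, 26.7% were called higher and 28.2% lower there in DN-CLIM skin, and 25.7% and 28.3% in WT skin. Maged1 and Traf6 act below neurotrophin receptors, Rtn4 limits axon growth and Nrtn is a ligand of the GDNF family. Of 14 partners of NCAM1, 12 had a probe set and 4 were tested. Fgfr1, a receptor that NCAM1 binds, also fell at P14 relative to P6, by 1.13 in DN-CLIM skin and by 0.98 in WT skin, and rose at P23 relative to P14 by 1.19 in DN-CLIM and by 1.29 in WT skin (adjusted p at most 7e-05 in limma). Over the later step 3 of the 4 partners rose and 0 fell in each genotype, with medians of 0.57 in DN-CLIM and 0.42 in WT skin. For that step 27.1% of all probe sets were called higher and 27.2% lower in DN-CLIM skin, and 27% and 27.1% in WT skin. At P23 relative to P6 the medians of the partners were 0.081 in DN-CLIM and 0.30 in WT skin. In each of these 3 lists 0 genes passed between genotypes at P23 in limma, and 1 axon gene, Tubb3, had an unadjusted p under 0.05 (log2 difference 0.43, SE 0.13).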

How the data were processed

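Per the labels' protocols, back skin RNA was taken up in TRIzol, passed over RNeasy columns and turned into biotin-labelled RNA by in vitro transcription. The deposited table holds 1 intensity per probe set and array, made by the authors with MAS5 per the submitters' processing notes, with no version or annotation build given in the sources used here. The 2% trimmed mean was 500.2 to 500.3 on every array, and all 22 columns belonged to a sample. Arrays have no read depth: precision depends on their number and is lowest for dim probe sets.

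Groups and replicate numbers came from the titles. Of 12488 probe sets, 66 controls were left out. 10855 were paired with 1 gene by the platform annotation, 396 with several and 1237 with none. Log2 signals were not normalized further, since array medians differed by under 0.3. Probe sets with a mean at or above the median of all means (6211, for 4900 genes) were tested with limma 3.58.1 in R 4.3.3, with 1 mean per group, eBayes with a trend, two-sided tests, Benjamini-Hochberg adjustment and a threshold of 0.05. The fit was tested on simulated data.

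Every single-gene probe set of a member was named. From the other lists, only some of the members past the threshold were named, each by the brightest probe set of its gene. Those named, and the genes listed as dim or as not passing, were chosen after seeing their values. Likeness is Pearson's r over 22 arrays, with the 3 highest given. The members, lists and the P6 split were chosen with earlier results of these data known. Samples with the same replicate number deviated together weakly or not at all: their correlations ran from -0.047 to 0.25, above 0.1 in 4 of 11 pairs. The P23 pairs were all above 0 (0.14, 0.056 and 0.25). Alternatives were quantile normalization, 32 added to each signal, no filter, array weights, only the arrays compared, a replicate block, a term for P6 arrays 4 and 5, and leaving out each array. Sequences are RefSeq's, on GRCm38.p6.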

Additional observations from a re-analysis of the deposited data

Results flagged for a closer look

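Mag 161846_r_at read 98.1 in WT P6 replicate 2, apart from the other 4 arrays of that group, which read 132 to 142. The gap was 0.808 of the group's range. It was the only such array among 26 groups examined, of which chance sets apart about 1 in 20, and the probe set is dim.

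The genotype differences of Ncam1 and Pmp22 had opposite signs at P14 and P23. The log2 difference of Ncam1, DN-CLIM minus WT, was 0.61 at P14 and -0.23 at P23. That of Pmp22 was 0.32 at P14 and -0.19 at P23. At each age all 3 DN-CLIM arrays lay on one side of all 3 WT arrays, and on the opposite sides at the 2 ages. Of all probe sets, 6.84% were higher in DN-CLIM skin without overlap at P14, and 7.21% were lower without overlap at P23. Neither gene passed at P23 (adjusted p = 0.999 in limma for both). The difference between the ages was not tested, since the P14 values chose the genes.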

How the results depend on the processing

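The genotype comparison at P23 gave 0 called members under each alternative and each array left out. With the replicate block it also gave 0, with adjusted p = 0.842 at the lowest in limma. Each replicate number has an array of each genotype at each age, so the block cannot move the genotype differences. The medians of the members at P6 and P14, -0.13 and 0.25, are therefore the same with it by construction. The block changed no other call, and the age comparisons have no block because the ages are different mice. The 1 WT call of Ncam1 as lower at P23 relative to P6 became 0 without the filter (adjusted p = 0.0714) and with only the arrays compared (0.0542). With 1 array left out, the WT count of members called lower at P23 relative to P6 ran from 0 to 1, and that of Sncg probe sets called higher at P23 relative to P14 from 0 to 2. Untested medians of the members ran from -0.17 to -0.057 for DN-CLIM minus WT at P6, from 0.16 to 0.33 at P14, and from -0.39 to -0.23 for P14 relative to P6 in WT skin. Small differences changed sign with 1 array left out: DN-CLIM minus WT at P23 ran from -0.11 to 0.10 for Sox10 (above 0 without WT replicate 1 at 0.097 or DN-CLIM replicate 2 at 0.058) and from -0.32 to 0.052 for Sncg 104280_at, at P14 from -0.0010 to 0.27 for Sncg 161859_f_at and at P6 from -0.067 to 0.17 for Pmp22. Sox10 at P23 relative to P6 in WT skin ran from -0.12 to 0.084, and Pmp22 at P14 relative to P6 in DN-CLIM skin from -0.23 to 0.0091. The cause was not tested. The rises of Pmp22 and both Mbp probe sets at P23 relative to P6, and the fall of Ncam1 in DN-CLIM skin, passed under each alternative run. Dim signals limit Mag and the second probe sets of Ncam1, Pmp22 and Sox10.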
